A study of Mus musculus with 21 samples.

Results

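Valine is carried to the ribosome by nuclear-encoded tRNAs with the anticodons AAC, CAC and TAC. They were followed here as all rows of the tRNA count tables whose names start with Val- and that are not mitochondrial. This rule gave 11 isodecoders of the 209 tRNA rows listed for cerebrum and of the 208 listed for cerebellum. An isodecoder is a tRNA sequence that shares its anticodon with sister sequences. Val-AAC had 4 rows (Val-AAC-1, Val-AAC-2, Val-AAC-4-1 and Val-AAC-5-1), Val-CAC had 6 (Val-CAC-1-1, Val-CAC-2, Val-CAC-3-1, Val-CAC-4-1, Val-CAC-5-1 and Val-CAC-7-1) and Val-TAC had 1 (Val-TAC-1). Each row was read alone and as part of the sum of its anticodon.

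Nuclear tRNAs are transcribed by RNA polymerase III, and Polr3a encodes its largest subunit. All valine codons begin with GU. In tRNA Val-AAC the first anticodon base is converted to inosine, which lets it read the codons GUU, GUC and GUA, while Val-CAC reads GUG and Val-TAC reads GUA and, by wobble, GUG. A separate valine tRNA, with the anticodon TAC, is encoded in mitochondrial DNA, transcribed by the mitochondrial RNA polymerase, and used within that organelle.

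Mice were labelled Polr3a mutant or wildtype, all were of strain C57BL/6J, and every group had received tamoxifen. Recombination was induced on postnatal day 28 and tissue was frozen on day 42. From cerebrum there were 4 mutant and 6 wildtype libraries, and from cerebellum 5 mutant and 6 wildtype libraries, with both sexes in each group. The labels name neither the Cre driver nor the exact Polr3a allele, and do not state that each library is another animal, so p-values cover the spread between these libraries and no more. Polr3a itself and cell type markers cannot be measured in a tRNA library. In these bulk tissues, fewer cells of a type and less tRNA per cell cannot be told apart.

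Cerebrum libraries held 4353056 to 7588902 tRNA counts. Cerebellum libraries fell into a shallow class of 1612754 to 2272675 counts (mutant 1 and 5 wildtype libraries) and a deep class of 4831721 to 7110313 counts (4 mutant libraries and wildtype 5), so depth and genotype nearly coincide there. Mitochondrial tRNAs held 14.3% ± 1.19 (SD, n = 4) of tRNA counts in mutant and 11.2% ± 0.445 (SD, n = 6) in wildtype cerebrum. In cerebellum the share was 17.2% ± 3.005 for mutant (SD, n = 5) and 13.4% ± 0.7002 for wildtype libraries (SD, n = 6). Because of that shift, many of the genotype results are given on a pair of scales. The first is TMM, which sets the bulk of all tRNAs equal between libraries. The second, chosen after the data were seen, takes the median ratio over the 22 mitochondrial tRNAs and a bacterial glutamine tRNA spike-in, and moved the log2 fold changes of all tRNAs by −0.41 in cerebrum and −0.30 in cerebellum relative to TMM. Nearly all of its rows are mitochondrial, so it sets mitochondrial tRNAs nearly equal between libraries. Comparisons of cerebellum with cerebrum within a genotype are not given on the second scale. For several cerebellum isodecoders it is shown only in the plot of valine isodecoder fold changes. A value given on TMM alone need not hold on the second scale. The spike-in alone held 0.329% of all counts in mutant and 0.266% in wildtype cerebrum. In cerebellum it held 0.884% in mutant and 0.634% in wildtype libraries. The second scale gave the mean levels of the authors' deposited tables within 0.1% for all 209 and 208 isodecoder rows. Of their anticodon rows, 71 of 72 in cerebrum (not Ser-TGA) and 70 of 71 in cerebellum (not Gln-TTG) did so, among them all 3 valine anticodons in both tissues.

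In the RefSeq annotation of GRCm38.p6, the assembly of the mm10 build, 22 nuclear tRNA genes carry a valine anticodon. Of these, 8 have the anticodon AAC, 11 CAC and 3 TAC, and all are 72 or 73 bases long. A total of 10 genes, 5 Val-AAC and 5 Val-CAC, lie on chromosome 13 between positions 22015791 and 23446214, while the Val-TAC genes lie on chromosomes 19 (a pair of neighbours) and X. In GENCODE M21, 16 of the 22 genes were intergenic, 6 lay in introns of other genes and none overlapped an exon. One intronic Val-AAC gene lies on chromosome 4 at 139430506 to 139430577, in an intron of Ubr4, a ubiquitin ligase gene. Count rows were matched to these genes by anticodon only, since no source used here ties an isodecoder name to a position. Reads of near-identical isodecoders may be split between rows, and single-row values carry that uncertainty.

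The mitochondrial valine tRNA served as the contrast that Polr3a does not transcribe, and its sequence is shown because it shares the anticodon of Val-TAC. Its gene, mt-Tv, lies on the plus strand of the mitochondrial chromosome at chrM:1025-1093 (mm10, GENCODE M21). Written 5′ to 3′ as DNA, with the anticodon in capitals:
mt-Tv: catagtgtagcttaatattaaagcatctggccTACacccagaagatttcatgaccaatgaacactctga

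In mutant cerebrum the AAC anticodon fell on TMM scaling, on which the other valine anticodons did not pass. Val-AAC measured 453, 621, 654 and 583 CPM (TMM-scaled counts per 1000000 tRNA counts) in the 4 mutant libraries, against a lowest of 797, a median of 992 and a highest of 1107 CPM in the 6 wildtype libraries. All 4 mutants lay below all 6 wildtype libraries. The mean was 578 ± 87.9 CPM for mutants (SD, n = 4) and 959.7 ± 120.1 CPM for wildtype (SD, n = 6), a log2 fold change of −0.73 with a standard error (SE) of 0.15 (adjusted p = 0.00126 in edgeR's quasi-likelihood test, adjusted by Benjamini-Hochberg). Across the 72 anticodon rows tested, 2.78% were lower and 8.33% higher in mutants, and Val-AAC was the 1 of 3 valine anticodons among the lower ones.

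Val-CAC, the most abundant valine anticodon, measured 3826, 4861, 6151 and 5397 CPM in mutant cerebrum. Wildtype libraries had a lowest of 4234, a median of 5125 and a highest of 5795 CPM, so the mutants spread over and beyond the wildtype range. The log2 fold change was 0.01 ± 0.13 (SE; edgeR adjusted p = 0.946). Val-TAC measured 3143, 4050.1, 4422 and 4218 CPM in mutants, and its wildtype libraries had a lowest of 3065, a median of 3854 and a highest of 4542 CPM. Both groups overlapped almost fully, and the log2 fold change was 0.03 ± 0.13 (SE; edgeR adjusted p = 0.94).

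Shares within the valine family need no scaling between libraries, and they set Val-AAC apart in the same direction. In mutant cerebrum, Val-AAC made up 6.11, 6.52, 5.83 and 5.72% of nuclear valine counts, against a lowest of 8.65%, a median of 10.2% and a highest of 10.3% in wildtype. No mutant reached the lowest wildtype library. The means were 6.04% ± 0.357 for mutants (SD, n = 4) and 9.74% ± 0.732 for wildtype (SD, n = 6), and the log2 ratio of Val-AAC to the other valine counts differed by −0.75 ± 0.08 (SE; limma adjusted p = 7.48e-06). Val-CAC held 52.6% ± 1.69 in mutants and 50.9% ± 1.05 in wildtype, with a log2 ratio difference of 0.10 ± 0.05 (SE; limma adjusted p = 0.16). Val-TAC held 41.4% ± 1.43 in mutants and 39.4% ± 1.45 in wildtype, with 0.12 ± 0.06 (SE; limma adjusted p = 0.142). Over the 39 anticodons with a sister anticodon in their amino acid, 5.13% were lower and 12.8% higher. All nuclear valine tRNAs together made up 1.16% ± 0.316 of nuclear tRNA counts in mutants and 1.10% ± 0.161 in wildtype.

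**Figure D1:**
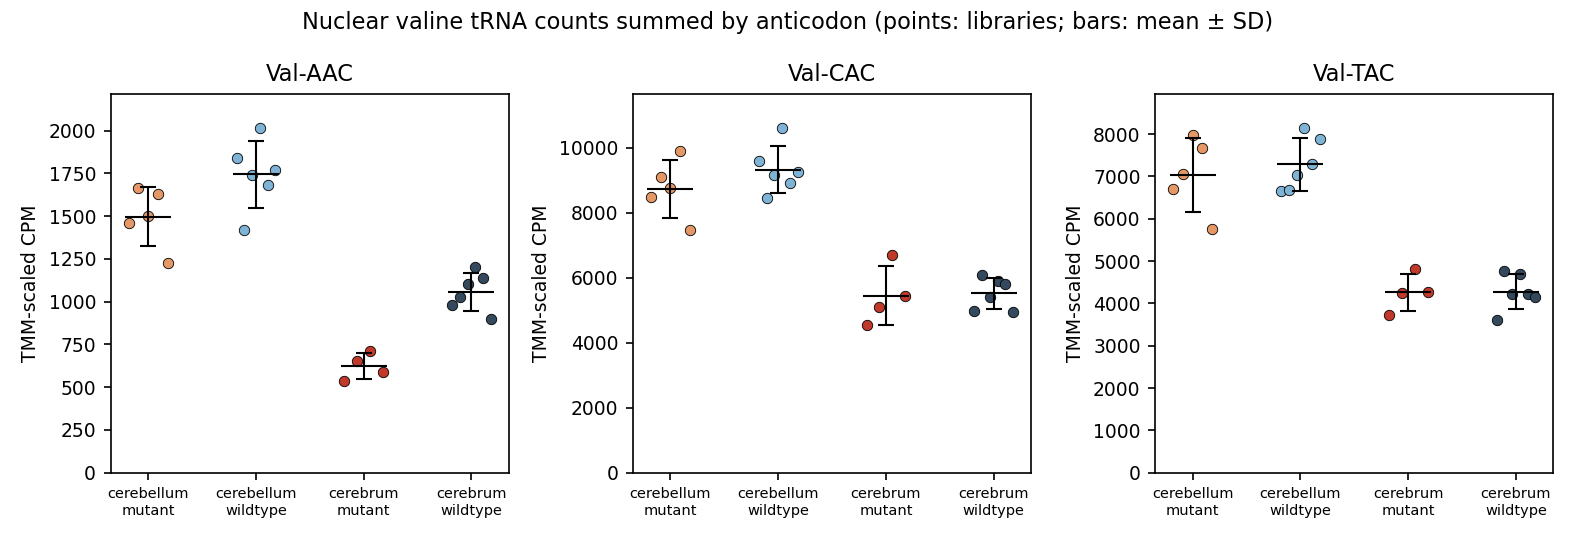
TMM-scaled CPM (vertical axis, one scaling over both tissues) of the 3 valine anticodons in each library (points), with the mean and SD of each group (bars). Mutant cerebrum lies between 539 and 712 CPM for Val-AAC, below every wildtype cerebrum library, while Val-CAC and Val-TAC overlap between genotypes in both tissues.

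Among single isodecoders in cerebrum, 4 of the 11 valine rows fell in mutants and none rose, where 11.5% of all 208 tRNAs tested were lower and 8.17% higher. These were Val-AAC-2, Val-AAC-4-1, Val-CAC-1-1 and Val-CAC-3-1, and in each the 4 mutants lay below all 6 wildtype libraries. The share of all tRNAs that separate in this way was not counted. The median log2 fold change was −0.32 over the 11 valine rows, against −0.03 over all rows and −0.07 over nuclear rows.

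Val-AAC-2, the most abundant Val-AAC isodecoder in wildtype cerebrum, measured 166, 223, 249 and 203 CPM in mutants. Wildtype libraries had a lowest of 336, a median of 403 and a highest of 439 CPM. The highest mutant stayed below the lowest wildtype library, and the log2 fold change was −0.91 ± 0.14 (SE; edgeR adjusted p = 0.000114).

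Val-AAC-4-1, the next in abundance, measured 169.6, 241, 199 and 192 CPM in mutants, against a lowest of 266, a median of 355 and a highest of 393 CPM in wildtype. Again the groups did not overlap, and the log2 fold change was −0.77 ± 0.15 (SE; edgeR adjusted p = 0.000613). Val-AAC-5-1 measured 145, 157, 209 and 177 CPM in mutants, against a lowest of 147, a median of 187 and a highest of 209 CPM in wildtype. Its groups covered nearly the same range, and the log2 fold change was −0.08 ± 0.15 (SE; edgeR adjusted p = 0.782). Val-AAC-1, a minor row, averaged 13.4 ± 2.84 CPM in mutants and 16.8 ± 3.698 CPM in wildtype. Its groups overlapped and it did not pass (log2 fold change −0.32 ± 0.22 SE, edgeR adjusted p = 0.318).

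Among Val-CAC isodecoders, which all read GUG, the dominant row and the intermediate rows differed. Val-CAC-2, which holds most Val-CAC counts, measured 3779, 4482, 5906 and 4980.2 CPM in mutants, against a lowest of 3576, a median of 4185 and a highest of 4957 CPM in wildtype. Its groups overlapped, and the log2 fold change was 0.19 ± 0.13 (SE; edgeR adjusted p = 0.32). Without mutant 1 it was 0.34 (edgeR adjusted p = 0.0481), the only single left-out library with which Val-CAC-2 passed.

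Val-CAC-1-1 measured 129.6, 169, 132 and 130.0 CPM in mutants, against a lowest of 181, a median of 305 and a highest of 319 CPM in wildtype. The lowest wildtype library, wildtype 6, stood apart from the other wildtype libraries but still above every mutant. The log2 fold change was −1.02 ± 0.16 (SE; edgeR adjusted p = 0.000137), the lowest of the 11 valine rows. Val-CAC-3-1 measured 229, 304, 287 and 268 CPM in mutants, against a lowest of 326, a median of 411 and a highest of 444 CPM in wildtype, without overlap. Its log2 fold change was −0.58 ± 0.13 (SE; edgeR adjusted p = 0.00387).

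The other Val-CAC rows were rare and their groups overlapped. Val-CAC-4-1 averaged 8.61 ± 1.75 CPM in mutants and 8.90 ± 2.47 CPM in wildtype (log2 fold change −0.06 ± 0.25 SE, edgeR adjusted p = 0.902). Val-CAC-5-1 averaged 3.19 ± 0.811 CPM in mutants and 3.702 ± 0.953 CPM in wildtype (−0.22 ± 0.29 SE, edgeR adjusted p = 0.674). Val-CAC-7-1 had 13, 18, 9 and 3 raw counts in mutants and 8 to 23 in wildtype, too few for a firm statement, and its log2 fold change was −0.82 ± 0.37 (SE; edgeR adjusted p = 0.122). Val-TAC-1, the whole of Val-TAC, did not pass either on the isodecoder scaling (log2 fold change 0.10 ± 0.12 SE, edgeR adjusted p = 0.622).

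**Figure D2:**
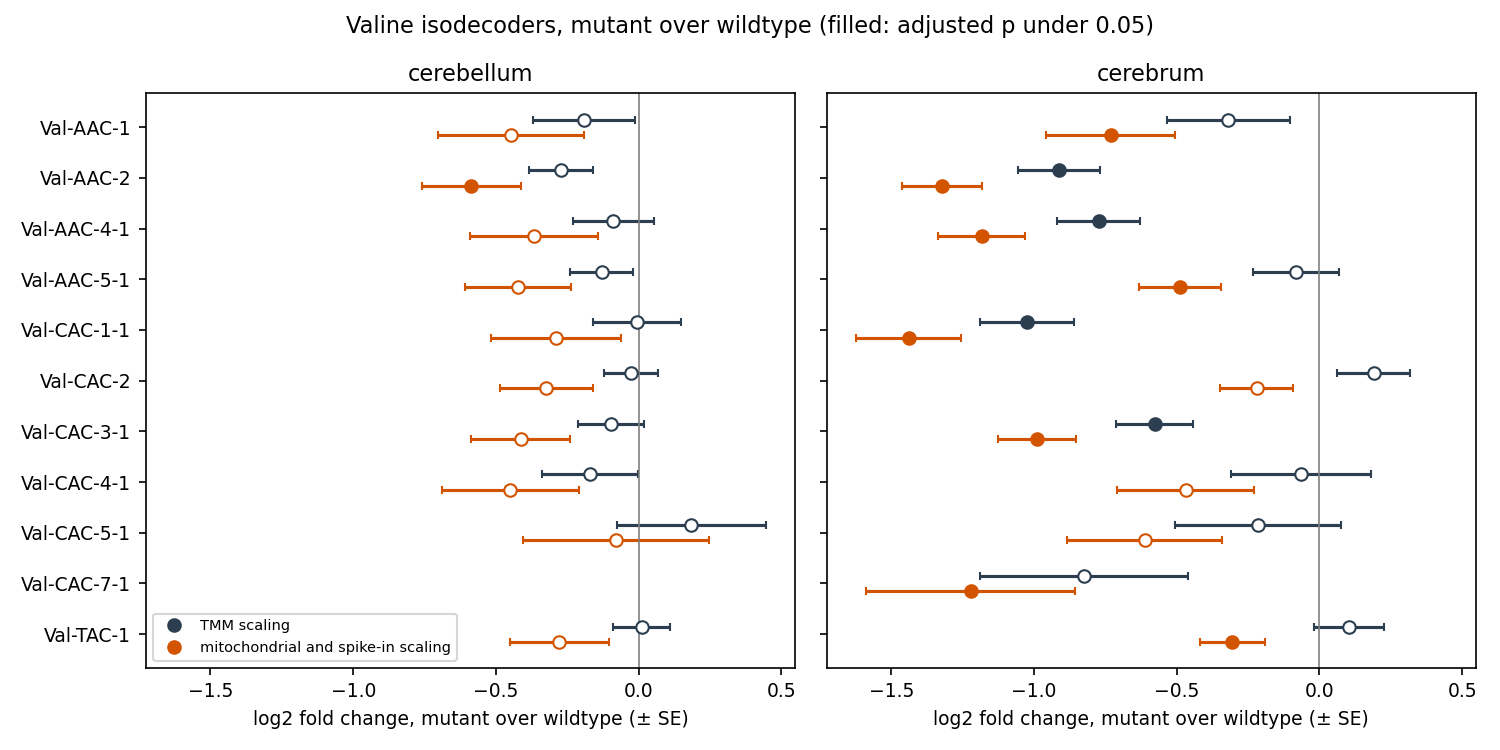
Log2 fold change, mutant over wildtype, with its standard error (horizontal axis) for each valine isodecoder (rows) in cerebellum and cerebrum, under TMM scaling and under mitochondrial and spike-in scaling. Filled points passed an adjusted p of 0.05. Under TMM, 4 cerebrum rows are filled and no cerebellum row is, and under the second scaling 8 cerebrum rows and Val-AAC-2 in cerebellum are filled.

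The make-up of each anticodon changed with these falls. Val-AAC-5-1 made up 29.5, 24.7, 31.0 and 30.4% of Val-AAC counts in mutant cerebrum, against a lowest of 16.2%, a median of 20.1% and a highest of 22.3% in wildtype. All 4 mutants lay above all wildtype libraries, and the log2 ratio to the other Val-AAC rows was higher by 0.75 ± 0.13 (SE; limma adjusted p = 0.000869). Val-AAC-2 held 35.2% ± 1.33 in mutants and 42.3% ± 1.18 in wildtype (log2 ratio −0.43 ± 0.07 SE, limma adjusted p = 0.0005). Val-AAC-4-1 held 33.7% ± 3.45 in mutants and 36.5% ± 2.05 in wildtype, and did not pass (−0.18 ± 0.11 SE, limma adjusted p = 0.205). The same test gave 0.34 ± 0.18 (SE; limma adjusted p = 0.147) for Val-AAC-1, which passed only without wildtype 1 (0.45, limma adjusted p = 0.0275).

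Within Val-CAC, Val-CAC-1-1 made up 3.12, 3.40, 2.09 and 2.41% of counts in mutant cerebrum, against a lowest of 4.14%, a median of 5.84% and a highest of 7.11% in wildtype. This share lay below the wildtype range in every mutant (log2 ratio −1.13 ± 0.18 SE, limma adjusted p = 0.0005). Val-CAC-3-1 held 5.29% ± 0.685 in mutants and 8.31% ± 0.695 in wildtype (−0.70 ± 0.10 SE, limma adjusted p = 0.000343). Val-CAC-2 held 91.7% ± 1.33 in mutants and 85.5% ± 1.63 in wildtype (0.91 ± 0.12 SE, limma adjusted p = 0.000318). The rare rows Val-CAC-4-1, Val-CAC-5-1 and Val-CAC-7-1 did not pass, though the share of Val-CAC-7-1 (−1.04, limma adjusted p = 0.0638) passed without mutant 1 (−1.27), mutant 2 (−1.32) or wildtype 5 (−1.21).

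Shares of an anticodon add up, so a higher share of one row goes with lower shares of others. In all, 3 of 10 valine rows had a lower and 2 a higher share, and 27% of the 178 tRNAs tested had a lower and 20.2% a higher one. The valine count is thus close to that over all tRNAs, and a changed make-up was common in mutant cerebrum.

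**Figure D3:**
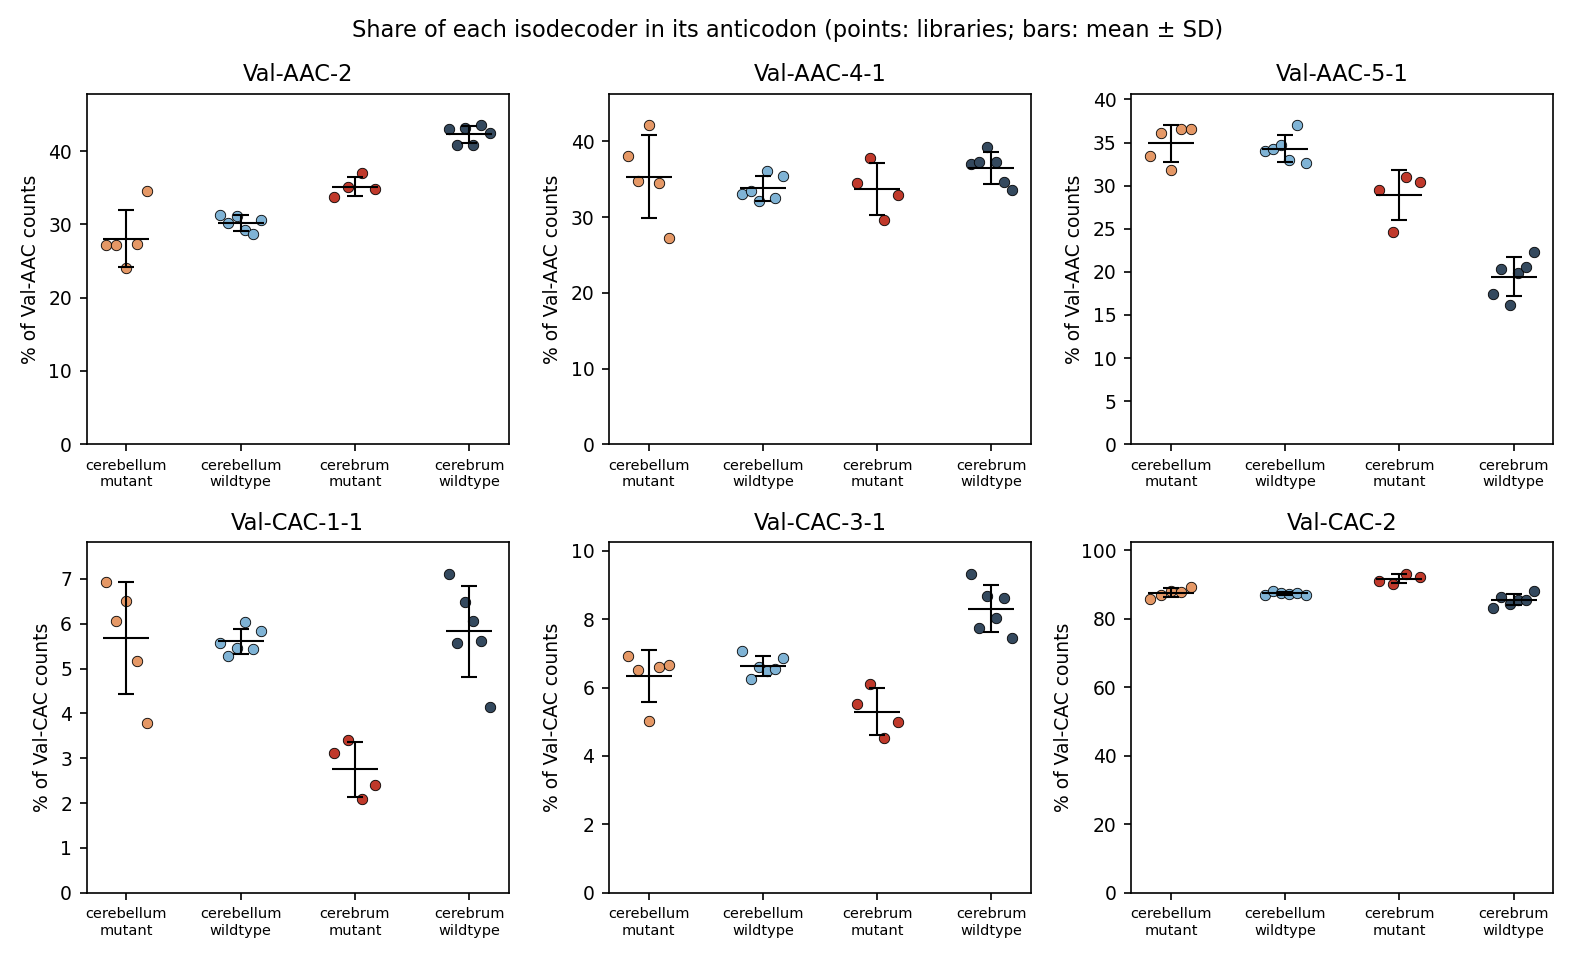
Percentage of its anticodon's counts held by 6 valine isodecoders (vertical axis) in each library (points), with the mean and SD of each group (bars). In mutant cerebrum Val-AAC-5-1 and Val-CAC-2 lie above and Val-AAC-2, Val-CAC-1-1 and Val-CAC-3-1 below the wildtype cerebrum libraries, while the cerebellum groups overlap.

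On the mitochondrial and spike-in scale, more tRNAs were lower in mutant cerebrum, valine rows among them. There 8 of 11 valine isodecoders fell, where 55.3% of all 208 rows did. The median was −0.73 over valine rows, −0.43 over all rows and −0.48 over nuclear rows. The 4 rows named above had log2 fold changes of −1.32 (Val-AAC-2, edgeR adjusted p = 6.83e-06), −1.18 (Val-AAC-4-1, 2.6e-05), −1.44 (Val-CAC-1-1, 2.6e-05) and −0.99 (Val-CAC-3-1, 4.8e-05). Val-CAC-7-1 (−1.22, edgeR adjusted p = 0.0148), Val-AAC-1 (−0.73, 0.0158), Val-AAC-5-1 (−0.49, 0.013) and Val-TAC-1 (−0.30, 0.0355) also passed. Val-CAC-2 did not, at −0.22 (edgeR adjusted p = 0.141), a sign opposite to that under TMM. Of the rows that passed, Val-CAC-7-1 rests on few counts, Val-AAC-5-1 lay near the nuclear median and Val-TAC-1 fell less than that median.

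For the anticodon sums on that scale, all 3 valine anticodons passed, where 45.8% of the 72 rows were lower. The median log2 fold change there was −0.29 over all rows and −0.38 over nuclear rows. Val-AAC averaged 2684 ± 334 normalised counts in mutants and 5605 ± 624 in wildtype, a log2 fold change of −1.06 (edgeR adjusted p = 5.91e-05). Val-CAC was at −0.32 (edgeR adjusted p = 0.0326) and Val-TAC at −0.30 (0.0298), and neither fell more than the nuclear median. In the authors' deposited table, the cerebrum values were −1.06 for Val-AAC (adjusted p = 7.3e-14), −0.32 for Val-CAC (0.0425) and −0.30 for Val-TAC (0.0353). The authors' deposited table of cerebrum isodecoders gives the opposite sign to the counts in all 209 rows, that is, wildtype over mutant, so a positive value there is a fall in mutants.

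Several other lists were counted in the same cerebrum comparison. Of 30 other nuclear isodecoders whose anticodon starts with A, read like Val-AAC through inosine in most families, 6 fell (median log2 fold change −0.16). The 3 with the lowest p were Ala-AGC-1-1 (−1.62), Ala-AGC-5 (−1.11) and Thr-AGT-6-1 (−0.96). Of 21 leucine and isoleucine isodecoders, which carry the other branched-chain amino acids, 3 fell (median 0.03), namely Leu-CAA-4-1 (−1.13), Leu-AAG-3-1 (−0.59) and Leu-TAA-1-1 (−0.45). Over all 175 other nuclear isodecoders, 20 fell and 2 rose (median −0.05).

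In cerebellum no valine tRNA passed on TMM scaling. Val-AAC measured 1589, 1820.3, 1633, 1762 and 1331 CPM in the 5 mutants, against a lowest of 1541, a median of 1907 and a highest of 2172 CPM in the 6 wildtype libraries. The groups overlapped, with the lowest value in mutant 5. The log2 fold change was −0.22 ± 0.14 (SE; edgeR adjusted p = 0.339). Val-CAC averaged 9505 ± 959 CPM in mutants and 10131 ± 760.2 CPM in wildtype (−0.09 ± 0.10 SE, edgeR adjusted p = 0.674). Val-TAC averaged 7642 ± 934 CPM in mutants and 7907 ± 650.5 CPM in wildtype (−0.05 ± 0.11 SE, edgeR adjusted p = 0.798).

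Of the 71 anticodon rows tested in cerebellum, 0% were lower and 0% higher with edgeR. At an unadjusted p under 0.05 there were 17 of all rows and 0 of the 3 valine anticodons, and DESeq2 likewise called 0 valine anticodons. On the mitochondrial and spike-in scale 14.1% of the rows were lower, and again 0 of 3 valine anticodons (−0.45, −0.33 and −0.28 for Val-AAC, Val-CAC and Val-TAC, with edgeR adjusted p of 0.0803, 0.166 and 0.232). In the authors' deposited table the cerebellum values were −0.45 (adjusted p = 0.0621), −0.33 (0.147) and −0.28 (0.248) in the same order.

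Of the 202 isodecoders tested in cerebellum, 1.98% were lower and 0.495% higher, and 0 of 10 valine rows passed with edgeR or DESeq2, with 1 at an unadjusted p under 0.05. That row was Val-AAC-2, with 452, 489.9, 393, 484 and 498 CPM in mutants, against a lowest of 459.5, a median of 584 and a highest of 607 CPM in wildtype. Most mutants lay below most wildtype libraries, but the groups overlapped (log2 fold change −0.27 ± 0.11 SE, edgeR adjusted p = 0.177). On the mitochondrial and spike-in scale it was −0.59 (edgeR adjusted p = 0.0298), the 1 valine row of 10 that passed there, where 15.8% of all rows were lower. The authors' deposited table for cerebellum also gave −0.59 for Val-AAC-2, and it passed there (adjusted p = 0.00723). Val-CAC-7-1, with 9, 17, 15, 28 and 12 counts in mutants and 2 to 19 in wildtype, was removed by the filter on low counts.

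On TMM scaling, other rows that fell in mutant cerebrum differed little between genotypes here. Val-CAC-1-1 measured 668, 596, 619, 558 and 333 CPM in mutant cerebellum, against a lowest of 481, a median of 560.4 and a highest of 652 CPM in wildtype. Mutants lay both above and below the wildtype range (log2 fold change −0.01 ± 0.15 SE, edgeR adjusted p = 0.976). Val-AAC-4-1 measured 633, 626, 687, 611 and 393 CPM in mutants, against a lowest of 511, a median of 631 and a highest of 739 CPM in wildtype. Mutant 5 was again the lowest library, and the log2 fold change was −0.09 ± 0.14 (SE; edgeR adjusted p = 0.872). The other 7 tested rows had log2 fold changes between −0.19 (Val-AAC-1) and 0.18 (Val-CAC-5-1), with −0.10 for Val-CAC-3-1 (edgeR adjusted p = 0.749). In the authors' deposited table for cerebellum, where Val-AAC-2 passed, the values of 3 other rows that fell in cerebrum were lower but did not pass. They were −0.41 for Val-CAC-3-1 (adjusted p = 0.0662), −0.37 for Val-AAC-4-1 (0.21) and −0.29 for Val-CAC-1-1 (0.339).

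The make-up of the valine pool in cerebellum was close between genotypes. Val-AAC held 8.67% ± 0.431 of valine counts in the 5 mutants and 9.48% ± 0.534 in the 6 wildtype libraries (log2 ratio −0.14 ± 0.09 SE, limma adjusted p = 0.668). Val-AAC-5-1 held 34.9% ± 2.15 of Val-AAC in mutants and 34.3% ± 1.55 in wildtype, and Val-CAC-1-1 held 5.69% ± 1.25 of Val-CAC in mutants and 5.60% ± 0.282 in wildtype. By limma, 0 of 9 valine rows and 0 of 3 valine anticodons passed, also at an unadjusted p under 0.05. Over all tRNAs, 4.6% of 174 isodecoder shares were lower and 5.17% higher, and 2.56% of 39 anticodon shares were lower and 0% higher.

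Depth class moved with genotype in cerebellum, and the parts of both in these values cannot be fully told apart. Within the deep class Val-AAC averaged 1637 CPM in 4 mutants and was 1836 CPM in the single wildtype library (log2 ratio −0.17). Within the shallow class it was 1589 CPM in the single mutant and averaged 1905 CPM in 5 wildtype libraries (−0.26). With depth class as a covariate the log2 fold change was −0.21 for Val-AAC (edgeR adjusted p = 0.599), −0.24 for Val-AAC-2 (0.45) and 0.13 for Val-CAC-1-1 (0.823).

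Whether the genotype difference itself differed between tissues was tested in a fit over all 21 libraries. The log2 fold change in cerebellum minus that in cerebrum was 1.01 ± 0.23 (SE; edgeR adjusted p = 0.00992) for Val-CAC-1-1 and 0.63 ± 0.18 (SE; edgeR adjusted p = 0.0408) for Val-AAC-2. These were the 2 of 11 valine rows that passed, where 4.9% of 204 tRNAs did in either direction. A positive value means a smaller fall, or none, in cerebellum. Val-AAC-4-1 (0.68 ± 0.22 SE, edgeR adjusted p = 0.0629) and Val-CAC-3-1 (0.46 ± 0.18 SE, edgeR adjusted p = 0.154) missed the threshold with edgeR but passed with DESeq2 (adjusted p = 0.0172 for Val-AAC-4-1 and 0.0499 for Val-CAC-3-1). Val-AAC-4-1 also passed with edgeR without any 1 of 4 libraries, namely cerebellum mutant 5 (0.80, edgeR adjusted p = 0.00428), cerebrum mutant 2 (0.77), cerebrum wildtype 1 (0.68) and cerebrum wildtype 6 (0.74).

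On the mitochondrial and spike-in scale the difference was 1.12 for Val-CAC-1-1 (edgeR adjusted p = 0.0581) and 0.71 for Val-AAC-2 (0.115), so neither passed there. The Val-AAC-2 call was also lost without any 1 of 12 libraries: cerebrum mutants 1 and 4, cerebrum wildtype 3, 4 and 5, cerebellum mutants 1, 2 and 4, and cerebellum wildtype 2, 3, 5 and 6. For the sum Val-AAC the difference was 0.54 ± 0.20 (SE; edgeR adjusted p = 0.19), and 0 of 3 valine anticodons passed with edgeR or DESeq2, with 1 at an unadjusted p under 0.05. Over the 72 anticodon rows 1.39% passed. A Val-AAC fall that passed in cerebrum and not in cerebellum is therefore not shown to differ between the tissues.

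**Figure D4:**
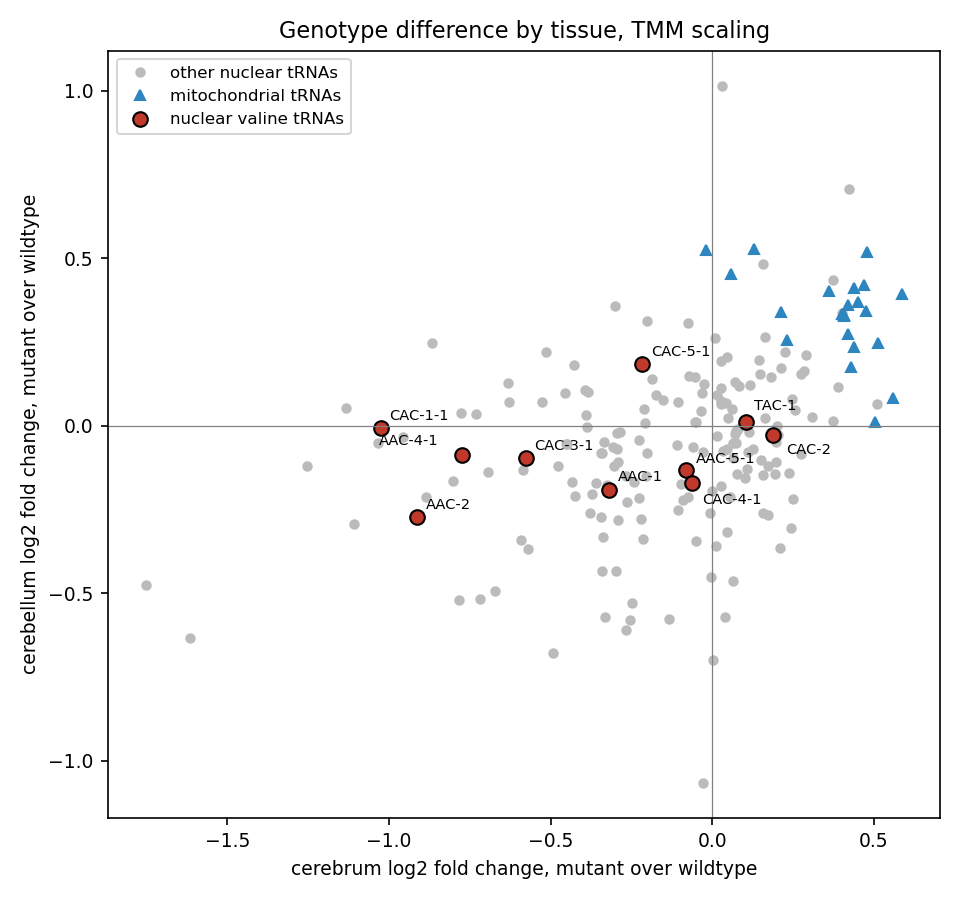
Log2 fold change, mutant over wildtype, in cerebrum (horizontal axis) and in cerebellum (vertical axis) under TMM scaling for the 200 tRNAs tested in both, with 10 nuclear valine isodecoders labelled and 22 mitochondrial tRNAs as triangles. Val-CAC-1-1 lies at −0.01 in cerebellum and −1.02 in cerebrum, and Val-AAC-2 at −0.27 in cerebellum and −0.91 in cerebrum.

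Between tissues, all 3 valine anticodons were higher in cerebellum than in cerebrum. Scaled over both tissues, Val-AAC averaged 1744 ± 196 CPM (SD, n = 6) in wildtype cerebellum and 1057 ± 110.3 CPM (SD, n = 6) in wildtype cerebrum, the log2 fold change being 0.72 ± 0.13 (SE; edgeR adjusted p = 1.31e-05). Wildtype cerebellum ranged from 1418 to 2015 CPM and wildtype cerebrum from 897 to 1200.1 CPM, so the groups did not overlap. Val-CAC averaged 9333 ± 732 CPM in wildtype cerebellum and 5525 ± 480.2 CPM in wildtype cerebrum (0.76 ± 0.10 SE, edgeR adjusted p = 1.51e-07). For Val-TAC the mean was 7284 ± 617 CPM in wildtype cerebellum and 4278 ± 420.5 CPM in wildtype cerebrum (0.77 ± 0.10 SE, edgeR adjusted p = 5.73e-08). The background is large, since 38.9% of the 72 anticodons were lower and 36.1% higher in wildtype cerebellum.

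In mutants, Val-AAC averaged 1497 ± 174 CPM (SD, n = 5) in cerebellum and 623 ± 75.3 CPM (SD, n = 4) in cerebrum, the log2 fold change being 1.26 ± 0.16 (SE; edgeR adjusted p = 3.5e-08). Val-CAC (0.68 ± 0.12 SE, edgeR adjusted p = 1.3e-05) and Val-TAC (0.72 ± 0.12 SE, edgeR adjusted p = 4.06e-06) were also higher in mutant cerebellum. Over all 72 anticodons, 43.1% were lower and 37.5% higher there. By level, Val-AAC thus ran from mutant cerebrum through wildtype cerebrum and mutant cerebellum to wildtype cerebellum. Mutant cerebellum (1225 to 1665 CPM) overlapped wildtype cerebellum, and it lay above wildtype cerebrum. Tissue and depth overlap in part. The single deep wildtype cerebellum library had 1684 CPM of Val-AAC, within the wildtype cerebellum range and above all wildtype cerebrum libraries. As 1 library it cannot separate depth from tissue, and a part of depth was not tested.

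Of the 11 valine isodecoders, 8 were higher and 0 lower in wildtype cerebellum, where 33.3% of 204 tRNAs were higher and 37.7% lower. The median log2 fold change was 0.67 over valine rows and −0.05 over all rows. The steepest was Val-AAC-5-1, at 565 ± 50.2 CPM in wildtype cerebellum and 199.5 ± 35.6 CPM in wildtype cerebrum (1.50 ± 0.13 SE, edgeR adjusted p = 7.42e-11). Its Val-AAC sister Val-AAC-2 did not pass with edgeR and TMM (0.20 ± 0.12 SE, edgeR adjusted p = 0.136), but did with DESeq2 (0.25, adjusted p = 0.0302) and with library totals (0.49, edgeR adjusted p = 0.00285). By mean CPM Val-AAC-5-1 stood above Val-AAC-2 (497 CPM) in wildtype cerebellum. The other rows that did not pass were the rare Val-CAC-5-1 (0.00 ± 0.26 SE) and Val-CAC-7-1 (−0.37 ± 0.34 SE).

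In mutants, 9 of 11 valine rows were higher and 0 lower in cerebellum, where 35.8% of 204 tRNAs were higher and 36.8% lower. Val-CAC-1-1 was the steepest of these, at 515 ± 128 CPM in mutant cerebellum and 161 ± 19.7 CPM in mutant cerebrum (1.67 ± 0.18 SE, edgeR adjusted p = 1.19e-08). Val-AAC-2 was also higher in mutant cerebellum (0.82 ± 0.14 SE, edgeR adjusted p = 9.52e-06). Nuclear valine tRNAs as a whole made up 2.29% ± 0.194 of nuclear counts in mutant cerebellum and 1.16% ± 0.316 in mutant cerebrum, and 2.28% ± 0.180 in wildtype cerebellum and 1.10% ± 0.161 in wildtype cerebrum.

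The nuclear anticodons of other amino acids whose pattern over the 4 groups was most like that of each valine anticodon were found by the mean absolute difference of centred log2 mean CPM, over 47 candidates. For Val-CAC these were Ala-CGC (0.0239), Gly-GCC (0.0377) and Trp-CCA (0.0472), and for Val-TAC they were Ala-CGC (0.0259), Trp-CCA (0.0343) and Leu-TAG (0.0359). The anticodons nearest to Val-AAC were Ala-AGC (0.206), Leu-AAG (0.208) and Gly-ACC (0.227), at a greater distance. On this centred scale Val-AAC stood at 0.39 in mutant and 0.61 in wildtype cerebellum, and at −0.88 in mutant and −0.12 in wildtype cerebrum. Its nearest neighbour Ala-AGC stood at 0.31, 0.46, −0.47 and −0.31 in the same groups.

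Mitochondrial Val-TAC, read in the same libraries, had another pattern. It measured 22401, 21540.0, 22656 and 23685 CPM in mutant cerebrum, against a lowest of 13891, a median of 14496 and a highest of 16731 CPM in wildtype. All mutants lay above all wildtype libraries (log2 fold change 0.59 ± 0.11 SE, edgeR adjusted p = 0.000613). How many other tRNAs separate so was not counted. A rise was not particular to this row, since the median over mitochondrial tRNAs was 0.42 under TMM. Of all 208 tRNAs tested in cerebrum, 8.17% were higher. On the mitochondrial and spike-in scale, where the median over mitochondrial tRNAs was 0.02, the log2 fold change was 0.18 (edgeR adjusted p = 0.132). Read as mutant over wildtype, the authors' deposited cerebrum values were also 0.18 and passed. Their adjusted p was 0.0337 among isodecoders and 0.0485 among anticodons. In cerebellum the TMM log2 fold change of mitochondrial Val-TAC was 0.39 ± 0.18 (SE; edgeR adjusted p = 0.247), with a median of 0.34 over mitochondrial tRNAs. Between wildtype tissues mitochondrial Val-TAC was lower in cerebellum (−0.76 ± 0.14 SE, edgeR adjusted p = 3.13e-05), where nuclear Val-TAC was higher.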

How the data were processed

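QuantM-tRNA-seq libraries from 21 tissue samples were used. The authors deposited raw counts per tRNA and tissue, and tables holding a mean signal (counts divided by size factors), a log2 fold change with its error, a test score, and p-values. The build was mm10 and the tools included featureCounts, Bowtie2, cutadapt and DESeq2, per the submitters' processing notes. Versions, and the handling of reads that fit several isodecoders, are not given in the sources used.

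Counts were fitted per tissue with edgeR 4.0.16 in R 4.3.3 (TMM, filterByExpr with a minimum count of 10, robust quasi-likelihood fit, two-sided, Benjamini-Hochberg over all tRNAs, threshold 0.05). The spike-in row was kept out of totals and tests. Tissue comparisons used 1 fit over all libraries. Shares were tested with limma 3.58.1 on the log2 ratio of a row to its sisters (pseudocount 0.5). The SE of an edgeR log2 fold change was derived from its F statistic. Alternatives were DESeq2 1.42.0, other scalings, no filter, sex, nuclear tRNAs only, a replicate block, a joint fit and leaving out each library. Mitochondrial and spike-in scaling and a depth covariate were chosen after the data were seen. Scripts were tested on simulated data.

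The members and lists were chosen with earlier results of these data known. All valine rows were named, with the 3 most alike anticodons and up to 3 passing members of each list.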

Additional observations from a re-analysis of the deposited data

Results flagged for a closer look

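In 52 groups of 4 to 6 libraries, a library was set apart when its gap to the nearest other was large for the range of its group (Dixon's test), and 5 were, where chance gives about 1 in 20. Val-AAC-4-1 was lowest in cerebellum mutant 5 at 393 CPM, with the next at 611 CPM. In cerebrum mutant 2, Val-CAC-1-1 was highest at 169 CPM (next 132 CPM) and Val-CAC-5-1 was highest at 4.39 CPM (next 2.95 CPM). In cerebrum wildtype 6, Val-CAC-1-1 was lowest at 181 CPM (next 290.1 CPM) and Val-CAC-3-1 was lowest at 326 CPM (next 400.2 CPM).

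Under TMM, the genotype difference was itself different between tissues for Val-AAC-2 (0.63, edgeR adjusted p = 0.0408) and Val-CAC-1-1 (1.01, 0.00992). Values are cerebellum minus cerebrum on the log2 scale. Neither row passed on the mitochondrial and spike-in scale, and the Val-AAC-2 call was lost without any 1 of 12 libraries. Whether the depth classes of cerebellum have a part in these differences was not tested.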

How the results depend on the processing

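Under all 20 alternatives run in cerebrum, Val-AAC stayed lower and passed (log2 fold change −1.06 to −0.63, highest adjusted p = 0.0141), as did its share of valine counts under 14 (−0.79 to −0.72), Val-AAC-2 (−1.32 to −0.77), Val-AAC-4-1 (−1.18 to −0.66), Val-CAC-1-1 (−1.44 to −0.94) and Val-CAC-3-1 (−0.99 to −0.46).

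Scaling moved the counts most. Valine rows that passed in cerebrum were 4 under TMM, 7 under mitochondrial total scaling and 8 under mitochondrial and spike-in scaling, and anticodons were 1 under TMM and 3 under the last. In cerebellum 0 rows passed under TMM and 1 under each of those scalings, and 0 anticodons under TMM and 1 under mitochondrial total scaling. Calls over all tRNAs rose as well. In cerebrum 11.5% of rows were lower under TMM and 55.3% under mitochondrial and spike-in scaling, and in cerebellum 1.98% and 15.8%. No share over all tRNAs is given for the other settings of this section. For the difference between tissues 2 rows passed, against 1 with library totals, 1 with mitochondrial total scaling, 4 with DESeq2 (Val-AAC-4-1 and Val-CAC-3-1 added), 1 with sex, and 0 with mitochondrial and spike-in scaling. Leaving out 1 library gave 1 to 3 rows there, and 0 to 1 for row shares in cerebellum (1 without mutant 5, Val-AAC-2). The causes were not tested.

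Same-numbered libraries did not vary together in every pair (r −0.20 to 0.60 between genotypes in cerebrum, −0.08 to 0.12 in cerebellum), so between genotypes the numbers were not taken as pairs. Between tissues r was −0.09 to 0.38 for mutants (1 of 4 libraries correlated best with its own number) and −0.04 to 0.43 for wildtype (4 of 6). All 4 mutant and all 6 wildtype numbers found in both tissues carry the same sex. The labels do not say whether they mark 1 mouse, and if they do, the tissue fits without the block treat libraries of 1 mouse as independent. With a replicate block, 5 valine rows and 1 anticodon passed in cerebrum, Val-CAC-7-1 being added (−0.98). For the genotype difference between tissues 3 rows passed, Val-AAC-4-1 being added (0.80, adjusted p = 0.00427), and 8 rows passed between wildtype and 10 between mutant tissues (Val-CAC-7-1 added). With the block a sign turned for Val-CAC in cerebrum (−0.02) and the Val-CAC-1-1 share in cerebellum (0.01). A sign also turned for the genotype difference of Val-TAC between tissues (0.02) and for Val-CAC-5-1 between wildtype tissues (0.03).

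Signs turned for several values, not all of them near 0. In cerebrum, Val-TAC-1, Val-CAC and Val-TAC turned and passed as falls under mitochondrial and spike-in scaling. In cerebrum with mitochondrial total and with mitochondrial and spike-in scaling, values were −0.20 and −0.22 for Val-CAC-2, −0.28 and −0.30 for Val-TAC-1 and Val-TAC, and −0.30 and −0.32 for Val-CAC. RLE and DESeq2 gave −0.07 for Val-CAC and −0.05 for Val-TAC. The joint fit gave −0.02, −0.00 and 0.00 for Val-CAC, Val-TAC and Val-CAC-4-1. In cerebellum, Val-CAC-1-1 turned to 0.03 (RLE, DESeq2), 0.04 (sex), 0.05 (nuclear only, joint fit) and 0.13 (depth class), and Val-CAC-2 to 0.01 (RLE, DESeq2) and 0.03 (nuclear only, joint fit). Val-TAC-1 turned to −0.01 (library totals, depth class), −0.32 (mitochondrial total) and −0.28 (mitochondrial and spike-in), Val-CAC-5-1 to −0.13, −0.08 and −0.00 (mitochondrial total, mitochondrial and spike-in, depth class), and Val-TAC to 0.02 (nuclear only). For cerebellum shares, sex gave −0.01 (Val-AAC-5-1) and 0.06 (Val-CAC-1-1). Depth class gave −0.06 (Val-AAC-5-1 and Val-CAC-2), 0.14 (Val-CAC-1-1), −0.01 (Val-CAC-5-1) and 0.02 (Val-CAC). For the genotype difference between tissues, mitochondrial and spike-in scaling gave 0.04 (Val-AAC-5-1) and 0.00 (Val-TAC-1, Val-TAC). Val-CAC-5-1 between wildtype tissues gave 0.04 (RLE, DESeq2, mitochondrial total), 0.29 (library totals) and 0.03 (nuclear only).

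Leaving out 1 library turned a sign within these ranges. In cerebrum they were −0.19 to 0.04 (Val-AAC-5-1), −0.17 to 0.11 (Val-CAC-4-1), −0.10 to 0.12 (Val-CAC) and −0.03 to 0.12 (Val-TAC). In cerebellum they were −0.15 to 0.05 (Val-AAC-4-1), −0.08 to 0.15 (Val-CAC-1-1), −0.07 to 0.02 (Val-CAC-2), −0.03 to 0.08 (Val-TAC-1) and −0.10 to 0.03 (Val-TAC). For cerebellum shares they were −0.14 to 0.04 (Val-AAC-1), −0.02 to 0.22 (Val-AAC-4-1), −0.09 to 0.14 (Val-CAC-1-1), −0.02 to 0.09 (Val-CAC-2), −0.12 to 0.01 (Val-CAC-3-1) and −0.03 to 0.03 (Val-CAC). For the genotype difference between tissues they were −0.15 to 0.02 (Val-AAC-5-1), −0.19 to 0.04 (Val-CAC) and −0.15 to 0.03 (Val-TAC), and for Val-CAC-5-1 between wildtype tissues −0.11 to 0.11. Val-CAC-7-1 and Val-CAC-5-1, with few counts per library, are limited by depth.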
